A study of Mus musculus with 32 samples.

Results

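The regions described here are 2799 stretches of chromatin in wild-type J1 mouse embryonic stem (ES) cells that carried 3 signs of an active promoter in the same place. They are the wild-type peaks of trimethylated lysine 4 of histone H3 (H3K4me3) on chromosomes 1 to 19 that were narrower than 3000 bp and overlapped, by at least 1 bp, a wild-type peak of acetylated lysine 9 of histone H3 (H3K9ac) and a wild-type peak of RNA polymerase II (RNAP). They make up 9.46% of the 29573 H3K4me3 peaks of that width on these chromosomes, out of 32560 H3K4me3 peaks in all. The regions were thus chosen by the positions and widths of peaks in these 3 wild-type lists. Their wild-type share is therefore 100% for H3K4me3, H3K9ac and RNAP by construction (background shares of 10.1% for H3K9ac and 45.8% for RNAP, over all peaks of that width), and the share in a knockout list can only be equal or lower. The name promoter rests on this chromatin alone, because the positions are in the mouse build mm9 and no gene annotation of that build was used here. No gene names or sequences are therefore given.

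H3K4me3 is laid down around the starts of active and poised genes, and H3K9ac marks active promoters. H3K9ac is deposited by acetyltransferases such as GCN5 and PCAF, which work inside large coactivator complexes, among them SAGA. TAF5L and TAF6L are structural subunits of the SAGA-type complexes, related to TAF5 and TAF6 of the general factor TFIID. RNA polymerase II carries a long tail of repeats that is phosphorylated on serine 5 (RNAP-ser5) as it starts and on serine 2 (RNAP-ser2) as it moves into the gene.

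Chromatin immunoprecipitation followed by sequencing (ChIP-seq) compared wild-type J1 cells with Taf5l-KO and Taf6l-KO J1 cells. J1 is an ES cell line, grown here in serum with the cytokine LIF. For H3K4me3, H3K9ac, RNAP, RNAP-ser5, RNAP-ser2, Myc and Oct4 there was 1 library in each of the 3 genotypes. In otherwise wild-type J1 cells, TAF5L and TAF6L carrying the tag FB were precipitated with streptavidin (bioChIP) from 2 lines each, beside 1 control library of the biotin ligase BirA. The labels do not say how the knockouts were made, how many clones they come from, or whether the tagged lines are independent cultures.

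The 21 libraries of the knockout series held 1702363 to 22968606 unique tags and the 5 bioChIP libraries 18292747 to 27775010. With 1 library per antibody and genotype no test between genotypes was possible. Shares carry exact (Clopper-Pearson) 95% intervals, which cover counting error only and treat neighbouring regions as independent. Fold enrichment is the peak caller's ratio of ChIP to local background, given by the authors for each peak. It is used to describe and rank peaks within 1 list and not to compare signal between libraries. Where values of several genotypes are given for 1 region, each describes the listed peak of its own library. Differences between such values are not read as changes in signal. Beside the first count of regions on each list stands the share of all 29573 narrow H3K4me3 peaks that the list overlapped, called the background share. Where regions were split by a wild-type peak, the background share is over the narrow peaks split in the same way.

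The acetylated regions lay at the strong and wide end of the narrow H3K4me3 peaks. Their H3K4me3 fold enrichment had a median of 10.5, with quartiles of 8.87 and 12.1 and a range of 3.18 to 19.5. Over all narrow H3K4me3 peaks the median was 5.38, and over the 10732 that had an RNAP peak but no H3K9ac peak it was 6.73. Their median width was 1867 bp, with quartiles of 1329 and 2336 bp, against 748 bp over all narrow peaks and 945 bp over those with RNAP but no H3K9ac. These differences come from values that took part in the choice and are given as a description.

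Within a region the acetylated stretch was short and the polymerase peak lay over it. The H3K9ac peak had a median width of 443 bp and a median fold enrichment of 4.75, with quartiles of 4.32 and 5.42. The RNAP peak had a median width of 802 bp and a median fold enrichment of 6.44, with a highest value of 47.2. A single H3K9ac peak lay on 2776 of the regions and a single RNAP peak on 2716. The H3K9ac peak was wholly inside the H3K4me3 peak in 2709 regions, or 96.8%, whereas the RNAP peak was wholly inside in 1891, or 67.6%. The H3K9ac and RNAP peaks overlapped each other in 2667 regions, or 95.3%, which the choice of regions did not require. Their centres were a median of 182 bp apart, and each lay near the centre of the region, at medians of 179 bp for H3K9ac and 226 bp for RNAP.

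The 3 fold enrichments were only loosely related across regions. Spearman's rho over the 2799 regions was 0.29 between H3K4me3 and H3K9ac, 0.12 between H3K9ac and RNAP and -0.13 between H3K4me3 and RNAP. Each pair shares the cells and the wild-type input, and regions are not independent replicates, so these values are a description. The regions were spread over all 19 chromosomes, from 6.53% of the narrow H3K4me3 peaks on chromosome 15 to 12.1% on chromosome 11, which held 265 of them. The median gap between neighbours was 380722 bp, and 18 of 2780 gaps were under 2000 bp.

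The widest region kept, on chromosome 13 from 46820993 to 46823990, was 2998 bp wide, with fold enrichments of 11.7 for H3K4me3, 4.71 for H3K9ac and 4.36 for RNAP. The narrowest one left out, on chromosome 14 from 103496407 to 103499406, was 3000 bp wide, with 11.3, 5.30 and 5.59. The 3 widest regions kept had RNAP fold enrichments of 4.36, 4.06 and 5.11, all below the 5.59, 5.91 and 10.4 of the 3 narrowest left out, while their H3K4me3 values, 9.15 to 11.7 and 9.31 to 11.3, overlapped. Over all 2799 regions Spearman's rho between RNAP fold enrichment and H3K4me3 width was -0.15, so these few regions do not stand for a trend with width. The rule without the width limit would add 863 wider regions.

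H3K4me3 and RNAP peaks stayed listed at nearly all of these regions in both knockouts, while H3K9ac peaks were listed at few. The Taf5l-KO H3K9ac list overlapped 48 of the 2799 regions, or 1.71% (95% interval 1.27 to 2.27, background share 0.189%). The Taf6l-KO list overlapped 451, or 16.1% (14.8 to 17.5, background share 1.84%). Both shares are limited by the length of the lists. Counted over chromosomes 1 to 19, the Taf5l-KO list has 110 H3K9ac peaks in all and the Taf6l-KO list 880, against 4024 for wild type. The part of each H3K9ac list lying on the regions was 70.1% for wild type, 43.6% for Taf5l-KO and 51.7% for Taf6l-KO. The H3K4me3 lists overlapped 2778 regions in Taf5l-KO, or 99.2% (98.9 to 99.5, background share 83.5%), and 2781 in Taf6l-KO, or 99.4% (99.0 to 99.6, background share 79.3%). The RNAP lists overlapped 2765 in Taf5l-KO, or 98.8% (98.3 to 99.2, background share 42.0%), and 2773 in Taf6l-KO, or 99.1% (98.6 to 99.4, background share 51.2%). The background over all narrow peaks includes many without wild-type H3K9ac or RNAP. Of the 2974 narrow H3K4me3 peaks with wild-type H3K9ac, most of which are the regions described, H3K9ac was listed at 1.75% for Taf5l-KO and 15.9% for Taf6l-KO, close to the regions themselves. Of the 13531 with wild-type RNAP, RNAP was listed at 75.2% for Taf5l-KO and 88.4% for Taf6l-KO. Region by region, 2732 of the 2799, or 97.6%, had both an H3K4me3 and an RNAP peak in all 3 genotypes. Of the 2799, 2285, or 81.6%, had these and no H3K9ac peak in either knockout. These joint shares were not counted over all narrow peaks. Taken singly, H3K4me3 was listed in both knockouts at 76.1% of the 29573 narrow peaks, and RNAP at 72.9% of the 13531 with wild-type RNAP. H3K9ac was in neither knockout at 83.9% of the regions, so the 81.6% largely restates the separate shares.

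**Figure D1:**
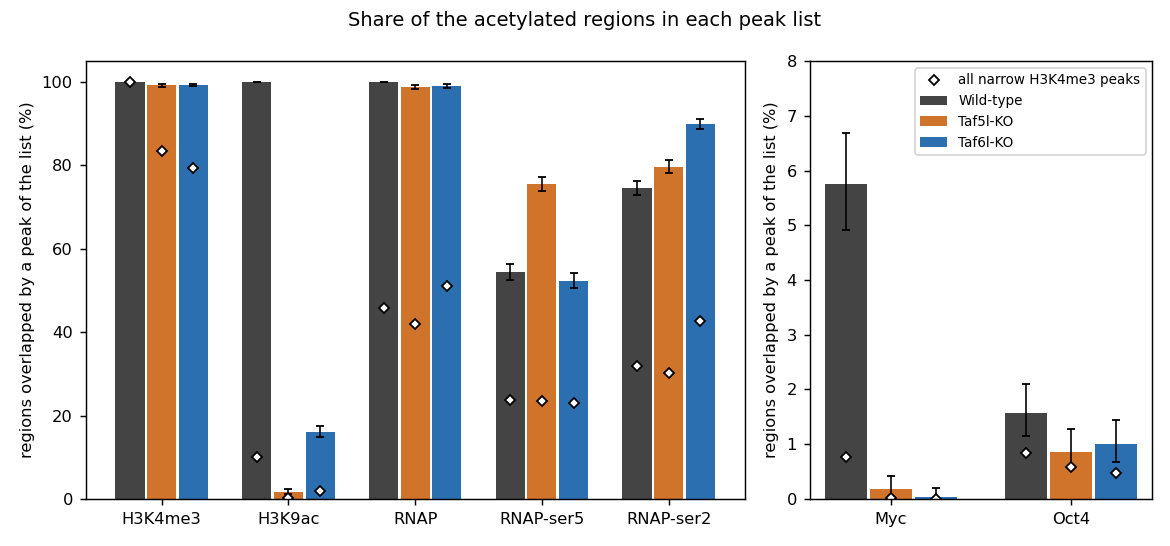
Share of the 2799 acetylated regions overlapped by the peak list of each target and genotype, in percent. Bars give the share, error bars the exact 95% interval, and open diamonds the share of all 29573 narrow H3K4me3 peaks; the 100% bars of wild-type H3K4me3, H3K9ac and RNAP are fixed by the choice of regions, and the H3K9ac bars of 1.71% and 16.1% stand beside RNAP bars of 98.8% and 99.1%. The right panel has its own scale for Myc and Oct4.

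The base pairs show the same order. Wild-type H3K9ac peaks covered 29.2% of the 5093401 bp of the regions, Taf5l-KO peaks 0.156% and Taf6l-KO peaks 2.77%. The H3K9ac peaks on the regions had median widths of 442 bp in wild-type cells, 126 bp in Taf5l-KO cells and 260 bp in Taf6l-KO, so that listed peaks were both fewer and narrower. H3K4me3 peaks covered 89.7% in Taf5l-KO cells and 85.8% in Taf6l-KO. RNAP peaks covered 45.2% in wild-type cells, 54.8% in Taf5l-KO cells and 54.4% in Taf6l-KO.

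**Figure D2:**
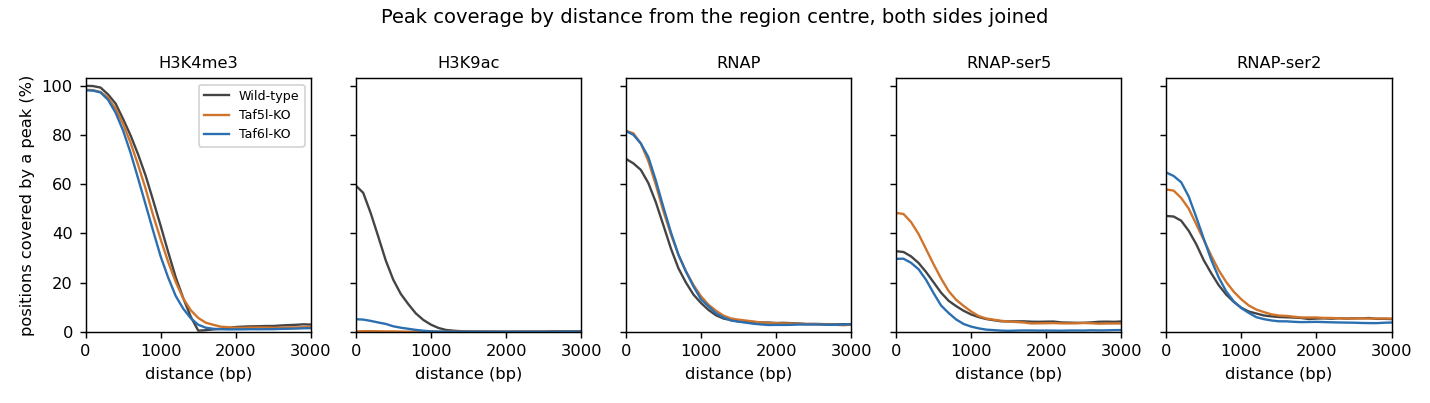
Percent of positions covered by a peak (y axis) against the distance in bp from the centre of the region (x axis), for 5 targets and 3 genotypes, with both sides of the 2799 regions joined. At the centre H3K9ac peaks covered 59.5% of positions in wild-type cells, 0.179% in Taf5l-KO cells and 5.11% in Taf6l-KO, while RNAP peaks covered 70.3%, 81.7% and 81.6%.

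The libraries also differed in depth, input and fragment size. Relative to the wild-type library, unique H3K9ac tags numbered 1.32 times as many for Taf5l-KO and 1.07 times as many for Taf6l-KO. The inputs they were called against held 6245652 and 5923469 unique tags, against 7771755 for the wild-type input, and the fragment size modelled for H3K9ac was 139 bp in wild-type cells, 104 bp in Taf5l-KO cells and 122 bp in Taf6l-KO. For RNAP the same ratios were 3.07 and 1.40, and for H3K4me3 0.587 and 0.862. For H3K9ac the knockout libraries were the deeper ones, while their inputs were the shallower ones. The part of these differences in the shares was not tested.

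H3K9ac peaks in the knockouts were listed most often where the wild-type peak was strong. In the decile of the regions with the weakest wild-type H3K9ac fold enrichment (2.20 to 4.09), 0 of 280 had an H3K9ac peak in Taf5l-KO (upper limit 1.31%), and 25, or 8.93%, had one in Taf6l-KO. In the strongest decile (6.30 to 14.9), 28 of 280, or 10.0% (6.75 to 14.1), had one in Taf5l-KO cells and 142, or 50.7% (44.7 to 56.7), in Taf6l-KO. The share in Taf6l-KO stayed between 5.00% and 8.96% over the weakest 6 deciles and was higher in each of the 4 strongest, at 14.3%, 18.2%, 31.8% and 50.7%. Among the 300 regions whose H3K4me3, H3K9ac and RNAP peaks all had a −log10 q of at least 5 in wild-type cells, 23 (7.67%) kept a listed H3K9ac peak in Taf5l-KO cells and 147 (49.0%) in Taf6l-KO. With wild-type H3K9ac and RNAP strength each cut into tertiles, the Taf6l-KO share was 4.80% where both were in the lowest tertile and 38.6% where both were in the highest. Within the highest tertile of H3K9ac it was 29.0%, 27.3% and 38.6% from the lowest to the highest tertile of RNAP.

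**Figure D3:**
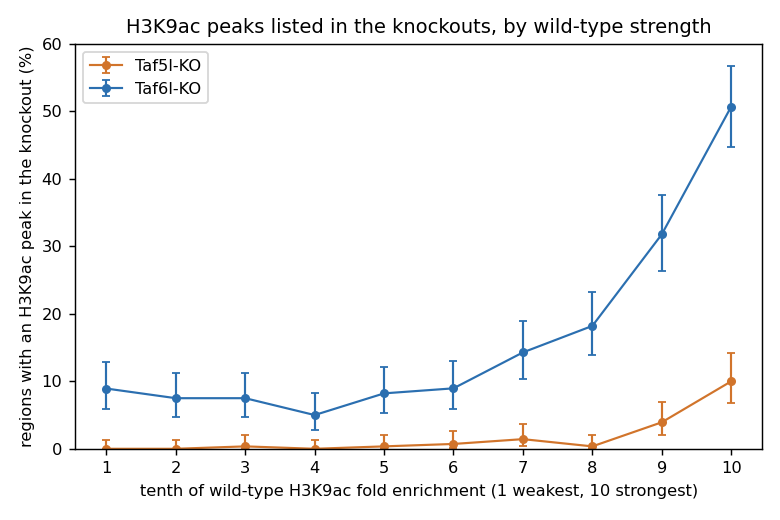
Share of regions with an H3K9ac peak in Taf5l-KO cells and in Taf6l-KO (y axis, percent) by decile of wild-type H3K9ac fold enrichment (x axis), with exact 95% intervals. Both lines end highest, at 10.0% and 50.7% in the strongest decile.

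The regions fall into 4 classes by their H3K9ac peaks in the knockouts, and the classes were nested with 1 exception. An H3K9ac peak was listed in both knockouts at 47 regions, in Taf6l-KO only at 404, in Taf5l-KO only at 1 and in neither at 2347, which is 83.9%, against 84.0% of the 2974 narrow H3K4me3 peaks with wild-type H3K9ac. The median wild-type H3K9ac fold enrichment was 6.62 in the first class, 5.58 in the second and 4.65 where neither knockout had a peak. The median H3K4me3 width was 2260, 2111 and 1815 bp in the same order. RNAP peaks were listed at almost the same share of the class with Taf6l-KO acetylation only and of the class with none. In Taf6l-KO these shares were 403 of 404 and 2322 of 2347, and in Taf5l-KO 401 of 404 and 2317 of 2347. All regions were chosen for a wild-type RNAP peak, and the Taf5l-KO and Taf6l-KO RNAP lists overlapped 98.8% and 99.1% of them. The class shares thus had little room to differ and do not show whether RNAP varies with kept H3K9ac.

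Regions that kept listed H3K9ac in both knockouts are shown by the 3 with the highest wild-type H3K9ac fold enrichment. The first was a narrow H3K4me3 peak of 413 bp on chromosome 11 from 101519119 to 101519531. Its H3K9ac fold enrichment was 10.5 in wild-type cells, 9.13 in Taf5l-KO cells and 9.88 in Taf6l-KO, and its RNAP values were 24.8, 22.5 and 20.2. Peaks of 18 of the 26 lists lay on it, including wild-type Oct4 and both TAF6L-FB lines. The second lay nearby on the same chromosome, from 101488156 to 101490214, with H3K9ac values of 10.5, 7.73 and 7.23 and RNAP values of 17.5, 10.5 and 11.4. The third, on chromosome 1 from 120353763 to 120356585, had H3K9ac values of 8.71, 6.58 and 7.45 and carried wild-type Myc, TAF5L-FB line 1 and TAF6L-FB line 1. All 3 had peaks of RNAP-ser5 and RNAP-ser2 in all 3 genotypes.

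Among regions with an H3K9ac peak in Taf6l-KO but not in Taf5l-KO, the strongest lay on chromosome 2 from 164703810 to 164706609. Its wild-type H3K9ac fold enrichment of 14.9 was the highest of all 2799 regions, and it was 5.90 in Taf6l-KO. RNAP values there were 16.8 in wild-type cells, 7.88 in Taf5l-KO cells and 16.1 in Taf6l-KO. The next were on chromosome 1 from 72290214 to 72291178, with H3K9ac values of 12.6 and 8.17 in wild-type and Taf6l-KO cells, and on chromosome 8 from 32260463 to 32262798, with 11.5 and 10.0. The single region with an H3K9ac peak in Taf5l-KO but not in Taf6l-KO lay on chromosome 11 from 87275571 to 87275753. It was 183 bp wide, with H3K9ac values of 6.42 in wild-type cells and 7.30 in Taf5l-KO, and its wild-type RNAP fold enrichment was 37.0.

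Strong wild-type acetylation could also be unlisted in both knockouts. The strongest such region was on chromosome 10 from 126747234 to 126749521, with a wild-type H3K9ac fold enrichment of 12.1. Its H3K4me3 values were 13.9 in wild-type cells, 16.8 in Taf5l-KO cells and 11.1 in Taf6l-KO, and its RNAP values 11.8, 9.75 and 6.40. A wild-type Myc peak lay on it, and no Myc peak in either knockout. The next region, on chromosome 12 from 8647016 to 8648366, had a wild-type H3K9ac value of 10.7. It was unlike the others, since apart from the H3K4me3 peaks of both knockouts (8.87 and 10.1) no list other than the 3 that chose it had a peak there. The third, on chromosome 11 from 102992593 to 102995046, had a wild-type H3K9ac value of 9.54, H3K4me3 values of 14.2 and 11.6 in Taf5l-KO cells and Taf6l-KO, and all 3 polymerase forms in all 3 genotypes.

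The few regions without H3K4me3 or RNAP in a knockout were weak or narrow in wild-type cells. H3K4me3 was unlisted at 21 regions in Taf5l-KO, 18 in Taf6l-KO and 11 in both (0.393%, background share 13.3%). Those 11 had a median wild-type H3K4me3 fold enrichment of 3.59 and a median width of 404 bp. An example without either H3K4me3 or RNAP in the knockouts is chromosome 1 from 63370530 to 63370919, with wild-type values of 5.52 for H3K4me3, 4.89 for H3K9ac and 4.48 for RNAP. On chromosome 7 from 87274213 to 87275936 the polymerase peaks remained, with RNAP values of 9.49, 7.79 and 8.09 in the wild type and in Taf5l-KO and Taf6l-KO cells, while H3K4me3 was listed in wild-type cells alone at 4.12. RNAP was unlisted at 34 regions in Taf5l-KO, 26 in Taf6l-KO and 14 in both (0.500%, background share 9.30% of the 13531 narrow peaks with wild-type RNAP). Those 14 had a median wild-type RNAP width of 275 bp. Their H3K4me3 was not weak, with a median of 9.47. On chromosome 11 from 43247143 to 43248306, for example, H3K4me3 values were 17.1, 10.7 and 13.2 in the 3 genotypes and the wild-type RNAP peak was 367 bp wide.

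Total RNAP was listed in the knockouts more often at the acetylated regions than at regions with RNAP but no H3K9ac in wild-type cells. Of the 10732 regions of the latter kind, 69.0% (68.1 to 69.9) had an RNAP peak in Taf5l-KO cells and 85.7% (85.0 to 86.3) in Taf6l-KO. The intervals do not touch those of the acetylated regions at 98.8% and 99.1%. The 2 kinds differ in wild-type strength, so they were also compared within quintiles of H3K4me3 fold enrichment over all narrow peaks and within quintiles of RNAP fold enrichment over the 13531 narrow peaks with RNAP. At the strongest quintile of H3K4me3, which held 2153 of the acetylated regions, RNAP was listed in Taf5l-KO at 99.0% of them and at 93.7% of the 2567 without H3K9ac. In the weakest quintile of RNAP (2.46 to 4.02) the shares were 95.1% of 162 and 50.9% of 2545. The difference in Taf5l-KO was present in all 5 quintiles of either measure. The quintiles do not match width, and the acetylated regions were wider, at a median of 1867 bp against 945 bp. Width was also narrowed to 1000 to 2000 bp within the strongest H3K4me3 quintile. There RNAP was listed in Taf5l-KO at 98.1% (97.0 to 98.9) of acetylated regions and 93.5% (92.1 to 94.7) of the others. The Taf5l-KO RNAP library held 3.07 times the wild-type unique tags, and the part of this was not tested.

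The wild-type RNAP-ser5 and RNAP-ser2 lists took no part in the choice of the regions. RNAP-ser5 peaks lay on 1523 regions, or 54.4% (52.6 to 56.3, background share 23.7%), and RNAP-ser2 peaks on 2088, or 74.6% (72.9 to 76.2, background share 31.9%). Both were above the 42.3% and 56.4% of the regions with RNAP but no H3K9ac. At like RNAP strength this difference was smaller or turned round below the strongest group. In the middle quintile of RNAP (4.71 to 5.59) RNAP-ser5 lay on 34.4% (30.3 to 38.7) of 506 acetylated regions and 39.7% (37.6 to 41.8) of 2200 without H3K9ac. RNAP-ser2 lay on 58.5% (54.1 to 62.8) and 56.1% (54.0 to 58.2) of the same regions. In the strongest quintile the acetylated regions were the higher ones, at 79.0% (76.5 to 81.3) against 74.8% (72.6 to 76.9) for RNAP-ser5 and 92.7% (91.1 to 94.2) against 88.0% (86.3 to 89.6) for RNAP-ser2. In both kinds of region the share with RNAP-ser5 was higher in each stronger group, starting from 16.7% and 22.1% in the weakest. The RNAP quintiles do not match width or H3K4me3 strength. At 1000 to 2000 bp in the strongest H3K4me3 quintile the difference stayed, at 43.6% against 22.7% for wild-type RNAP-ser5. For wild-type RNAP-ser2 the shares there were 66.4% (63.2 to 69.4) and 42.8% (40.3 to 45.4). That group is in turn not matched for RNAP strength.

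In Taf5l-KO more of the acetylated regions had a listed RNAP-ser5 peak than in wild-type cells. The Taf5l-KO list overlapped 2114 regions, or 75.5% (73.9 to 77.1, background share 23.5%), while the share at the regions without H3K9ac was 42.3% in wild-type cells and 38.4% in Taf5l-KO. That lower share did not hold at every strength. It was lower than wild type in each RNAP quintile, but in the strongest H3K4me3 quintile the regions without H3K9ac went from 29.3% to 46.5%, and those of 1000 to 2000 bp within it from 341 of 1501 (20.6% to 24.9%) to 600 of 1501 (37.5% to 42.5%). The acetylated regions of that width and quintile went the same way, from 43.6% (40.5 to 46.9) to 67.7% (64.6 to 70.7). Of the 1523 regions with wild-type RNAP-ser5, 1364 (89.6%, background share 61.0%) had it in Taf5l-KO. Of the 1276 without, 750 (58.8%, background share 11.9%) had it there. In the middle quintile of RNAP the Taf5l-KO share was 64.8% (60.5 to 69.0) of the acetylated regions and 35.6% (33.6 to 37.7) of the others, and it was higher at the acetylated regions in all 5 quintiles. The Taf5l-KO RNAP-ser5 library held 2.27 times as many unique tags as the wild-type one, and the part of this depth in the counts was not tested.

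In Taf6l-KO the RNAP-ser5 list overlapped 1466 regions, or 52.4% (50.5 to 54.2, background share 22.9%), an interval that overlaps the wild-type one. The regions were not all the same ones, since 1088 of the 1523 with wild-type RNAP-ser5 (71.4%, background share 62.2%) and 378 of the 1276 without (29.6%, background share 10.8%) were overlapped. It had 0.440 times as many unique tags as the wild-type library, and 92.6% of its tags were duplicates. When a peak had to reach a −log10 q of 5 to count, the order of genotypes changed, at 6.79% in wild-type cells, 17.0% in Taf5l-KO cells and 18.0% in Taf6l-KO. The order of wild type and Taf6l-KO thus depended on the peak threshold.

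RNAP-ser2 peaks were listed at more of the regions in both knockouts. They lay on 2231 in Taf5l-KO, or 79.7% (78.2 to 81.2, background share 30.3%), and on 2519 in Taf6l-KO, or 90.0% (88.8 to 91.1, background share 42.7%). The background share also differed between genotypes, at 31.9% in wild-type cells. Of the 2088 regions with wild-type RNAP-ser2, 1848 (88.5%, background share 69.5%) had it in Taf5l-KO cells and 1991 (95.4%, background share 83.1%) in Taf6l-KO. Of the 711 without wild-type RNAP-ser2, 383 (53.9%, background share 11.9%) had it in Taf5l-KO cells and 528 (74.3%, background share 23.7%) in Taf6l-KO. These libraries were shallower than the wild-type one, at 0.856 and 0.610 times its unique tags. At the same threshold the shares were 17.1% in wild-type cells, 15.9% in Taf5l-KO cells and 40.8% in Taf6l-KO, which reverses the order of wild type and Taf5l-KO.

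Read together, the 2 phosphorylated forms differed in their balance between the knockouts. Both forms were listed at 1411 regions (50.4%) in wild-type cells, 1929 (68.9%) in Taf5l-KO cells and 1448 (51.7%) in Taf6l-KO. RNAP-ser2 without RNAP-ser5 was listed at 677 (24.2%), 302 (10.8%) and 1071 (38.3%). Neither form was listed at 599 (21.4%), 383 (13.7%) and 262 (9.36%). At the regions with RNAP but no H3K9ac, both forms were listed at 37.5%, 33.4% and 42.9% in the same order. RNAP-ser2 without RNAP-ser5 was listed at 18.8%, 19.2% and 31.0% of them, and neither form at 38.9%, 42.4% and 24.1%. The rise of RNAP-ser2 alone in Taf6l-KO was thus present in both kinds of region. The knockout RNAP-ser5 libraries held 2.27 and 0.440 times the wild-type unique tags. The part of this in the balance was not tested. All of H3K4me3, RNAP, RNAP-ser5 and RNAP-ser2 were listed in all 3 genotypes at 1005 of the acetylated regions, or 35.9% (34.1 to 37.7). The background share of this joint count was not taken.

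**Figure D4:**
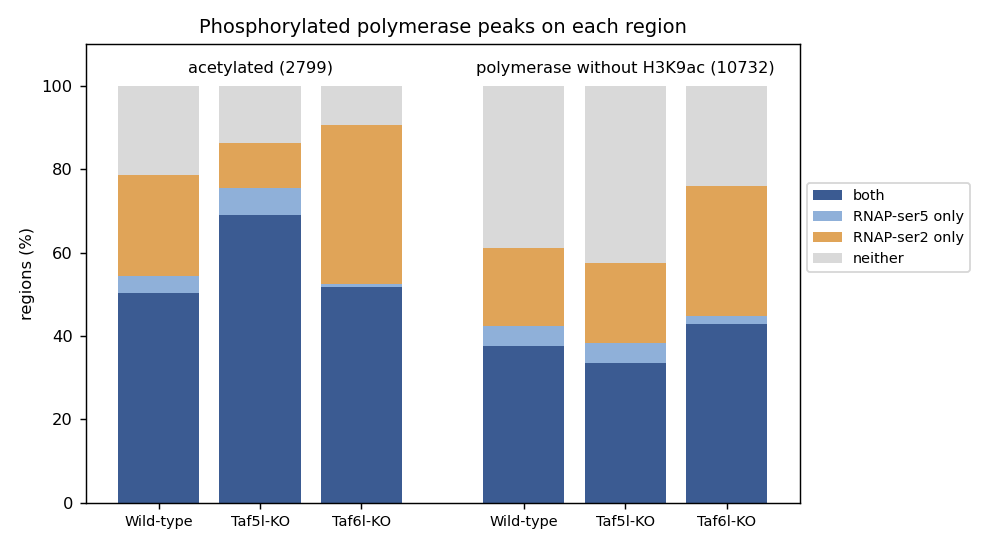
Percent of regions (y axis) with peaks of RNAP-ser5 and RNAP-ser2 together, of 1 form only or of neither, by genotype, for the 2799 acetylated regions and the 10732 regions with RNAP but no H3K9ac. Both forms together reach 68.9% of the acetylated regions in Taf5l-KO cells and 33.4% of the others.

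**Figure D5:**
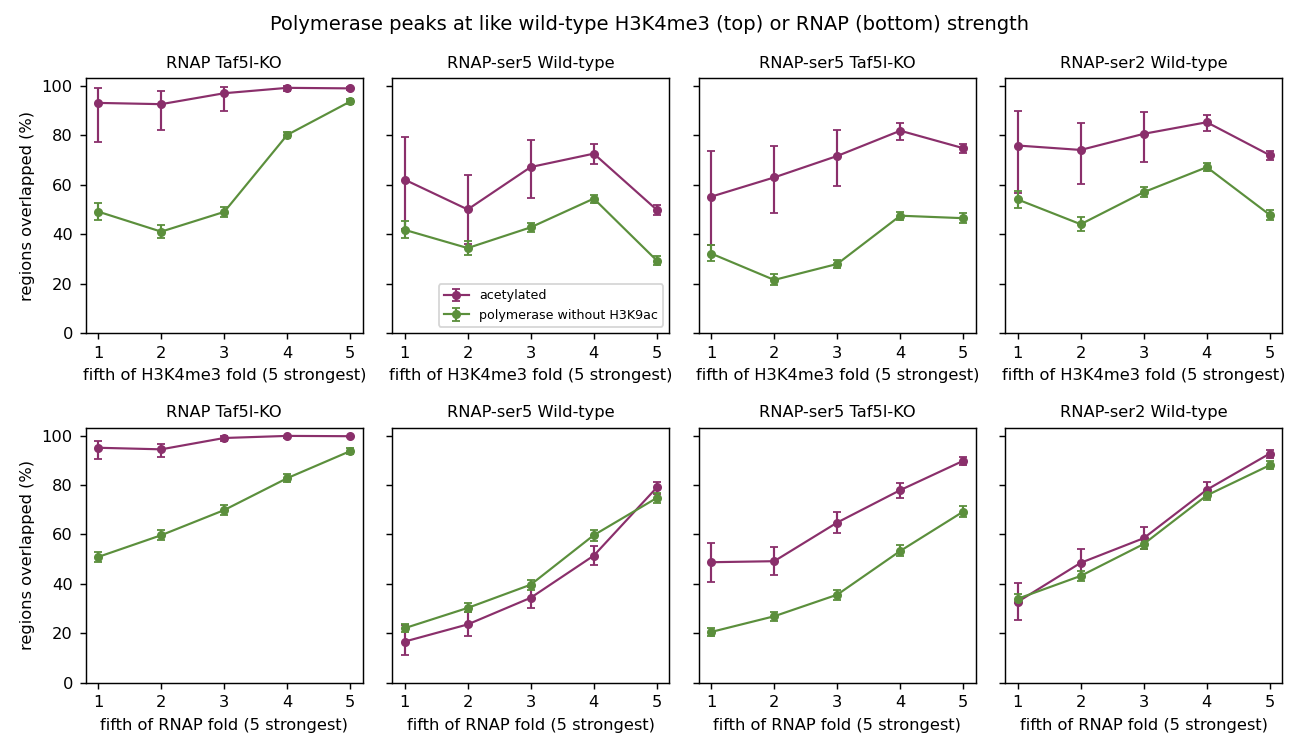
Percent of regions overlapped by 4 polymerase lists (y axis) in quintiles of wild-type H3K4me3 fold enrichment (top row) and of wild-type RNAP fold enrichment (bottom row), for acetylated regions and for regions with RNAP but no H3K9ac, with exact 95% intervals. In the bottom row the wild-type RNAP-ser5 and RNAP-ser2 points of both kinds lie near each other, whereas the Taf5l-KO points lie apart in all 5 quintiles, for RNAP-ser5 at 64.8% and 35.6% in the middle quintile.

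The polymerase peaks were also compared between regions that kept a listed H3K9ac peak and those that did not. At the 2347 regions with H3K9ac in neither knockout, RNAP-ser5 lay on 53.2% in wild-type cells, 73.9% in Taf5l-KO cells and 50.7% in Taf6l-KO, and RNAP-ser2 on 73.5%, 78.9% and 89.3%. At the 404 regions with H3K9ac in Taf6l-KO only, the RNAP-ser5 shares were 61.4%, 83.4% and 62.4%, and the RNAP-ser2 shares 81.7%, 83.4% and 94.6%. The second set was higher in all 6 of these lists, wild type included. The 47 regions with H3K9ac in both knockouts were not, with RNAP-ser5 at 55.3%, 89.4% and 46.8% and RNAP-ser2 at 70.2%, 89.4% and 87.2%. The change from wild type to each knockout had the same sign in all 3 sets for RNAP-ser2 and for RNAP-ser5 in Taf5l-KO.

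TAF6L-FB was found at a modest share of the acetylated regions and TAF5L-FB at very few. Regions of the 2 TAF6L-FB lines together overlapped 227 of the 2799, or 8.11% (7.13 to 9.18, background share 2.52%). Line 1 overlapped 194 (background share 2.02%) and line 2 overlapped 58 (background share 0.693%). Both lines overlapped 25 (background share not counted), so line 1 supplied most of the count. TAF5L-FB line 1 overlapped 14 (background share 0.112%) and line 2 overlapped 0. The BirA list overlapped 0 of 2799, which allows a share of up to 0.132%. In the 5 quintiles of wild-type RNAP strength the TAF6L-FB share at the acetylated regions was 5.57% to 9.60%, and at regions with RNAP but no H3K9ac 1.90% to 3.77%. These quintiles do not match width. At 1000 to 2000 bp in the strongest H3K4me3 quintile the shares were 6.83% (5.31 to 8.63) and 4.40% (3.42 to 5.56), with overlapping intervals. Of regions of that width and quintile with no wild-type polymerase peak, 3.74% (2.43 to 5.47) had TAF6L-FB.

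TAF6L-FB summits sat under the polymerase peak more often than under the H3K9ac peak. Of the 196 line 1 peaks on these regions, 85.2% had their summit inside the wild-type RNAP peak and 31.6% inside the H3K9ac peak. For the 58 line 2 peaks the shares were 87.9% and 41.4%. The RNAP peak is the wider of the pair, as given above, so the shares are not per base. All 227 regions with TAF6L-FB had an RNAP peak in both knockouts. H3K9ac was listed at 10 of them in Taf5l-KO (4.41%, 2.13 to 7.95) and 55 in Taf6l-KO (24.2%, 18.8 to 30.3), against 1.48% (1.05 to 2.02) and 15.4% (14.0 to 16.8) of the 2572 without TAF6L-FB. Their wild-type H3K9ac fold enrichment was also higher, at a median of 5.10 against 4.73.

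Regions with both tagged proteins numbered 9 (background share not counted). The one with the highest H3K4me3 lay on chromosome 11 from 19823749 to 19826634, with TAF5L-FB line 1 at 3.77 and TAF6L-FB line 1 at 5.43. Its H3K9ac peak of 5.35 in wild-type cells was unlisted in both knockouts, while RNAP was listed in all 3 genotypes at 4.78, 6.12 and 8.48. The second, on chromosome 1 from 36424461 to 36426482, had tagged values of 3.69 and 4.71. H3K9ac was listed in neither knockout there. The region on chromosome 1 that kept H3K9ac in both knockouts, described above, is another with both proteins.

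Myc, a transcription factor that binds active promoters widely, was listed at few regions in wild-type cells and at almost none in the knockouts. The wild-type list overlapped 161 regions, or 5.75% (4.92 to 6.68, background share 0.764%). The Taf5l-KO list overlapped 5 (background share 0.0203%) and the Taf6l-KO list 1 (background share 0.00676%). All 6 were among the 161 regions with wild-type Myc (background shares there 2.21% and 0.442%), none had Myc in both knockouts, and 0 of the 2638 other regions had Myc in a knockout (background share 0.00341% in each). The wild-type Myc list is short, with 531 peaks on these chromosomes, and 31.5% of them lay on the acetylated regions. The lists of the knockouts held 32 and 22 peaks, and the modelled fragment size was 95 bp in wild-type cells against 51 and 50 bp in the knockouts, where tags are 50 bp long. The part of this in the loss of listed peaks was not tested.

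Acetylated regions with wild-type Myc had wider polymerase and acetylation peaks and a lower H3K4me3 fold enrichment, with a median of 9.65 against 10.6. The median width was 1206 bp against 783 bp for RNAP, and 647 bp against 433 bp for H3K9ac, with Myc and without it. RNAP-ser5 lay on 73.3% (65.8 to 79.9) of the 161 in the wild type, 85.1% (78.6 to 90.2) with Taf5l-KO and 54.0% (46.0 to 61.9) in Taf6l-KO. Without Myc the values were 53.3%, 74.9% and 52.3%. H3K4me3 and RNAP remained listed at the 161 regions, with RNAP on 159 in each knockout. TAF6L-FB lay on 29 of them, or 18.0% (12.4 to 24.8), against 7.51% (6.53 to 8.58) of the 2638 without Myc. Myc summits lay inside the RNAP peak for 95.2% of 167 peaks and inside the H3K9ac peak for 65.9%.

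Of the 6 regions with knockout Myc, 3 had an H3K9ac peak in Taf6l-KO and 3 had none in either knockout. The 3 with the highest H3K4me3 were those with H3K9ac. On chromosome 17 from 17510311 to 17512447 the Myc fold enrichment was 31.8 in wild-type cells and 9.73 in Taf5l-KO, and H3K9ac was listed in all 3 genotypes at 7.99, 7.09 and 6.64. On chromosome 11 from 51501080 to 51503676 Myc was listed at 14.9 and 6.78, and H3K9ac at 6.58 in wild-type and 6.24 in Taf6l-KO cells. On chromosome 9 from 15109719 to 15112396 Myc was listed at 10.4 and 5.83. Its wild-type RNAP peak was 15670 bp wide and so ran far beyond the region.

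Oct4, the pluripotency factor encoded by Pou5f1, was rare at the acetylated regions. It was listed at 44 (1.57%, background share 0.832%) in wild-type cells, 24 (0.857%, background share 0.588%) in Taf5l-KO cells and 28 (1.00%, background share 0.48%) in Taf6l-KO. Of the 44, 12 (background share 39.4%) had Oct4 in Taf5l-KO cells and 14 (background share 35.8%) in Taf6l-KO, and 8 had it in all 3 genotypes. Among the 2755 regions without wild-type Oct4, 12 had it in Taf5l-KO (background share 0.263%) and 14 in Taf6l-KO (background share 0.184%). Of the 8 regions with Oct4 in all 3 genotypes, the 3 with the highest H3K4me3 had H3K9ac in neither knockout. On chromosome 5 from 33876508 to 33879012 the Oct4 fold enrichment was 24.8, 30.2 and 15.2 in the wild type and in Taf5l-KO and Taf6l-KO cells, and TAF5L-FB line 1 and both TAF6L-FB lines were also there. On chromosome 3 from 96961966 to 96964312 Oct4 was 17.4, 14.6 and 18.9. On chromosome 9 from 114547162 to 114549687 it was 13.2, 9.50 and 6.82, with RNAP listed in all 3 genotypes and no RNAP-ser5 in any. TAF6L-FB lay on 15 of the 44 regions with wild-type Oct4, or 34.1% (20.5 to 49.9), and on 7.70% (6.73 to 8.75) of the 2755 without.

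Applied to each genotype's own lists, the rule that chose the regions gave far fewer in the knockouts. It gave 2799 in wild-type cells, 61 in Taf5l-KO cells and 662 in Taf6l-KO. The rule needs an H3K9ac peak, and the H3K9ac lists held 4024, 110 and 880 peaks on chromosomes 1 to 19. These counts are thus limited by list length and restate the lower number of listed H3K9ac peaks. Of the 61, 59 overlapped a wild-type H3K9ac peak and 45 one of the 2799 regions. Of the 662, 593 (89.6%) overlapped a wild-type H3K9ac peak and 439 (66.3%) one of the 2799 regions.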

How the data were processed

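The 26 deposited files used are peak lists, 1 per precipitated library; the inputs were not analysed on their own. The submitters' processing notes name Bowtie2 2.3.2, deepTools 2.5.3 and the build mm9. The authors called peaks with MACS2 2.1.1.20160309 against an input, keeping at most 1 tag per position, at a q cutoff of 0.05 from tags of 50 bp, per the file headers. Broad linking (cutoff 0.1) was used for the histone marks and the polymerase forms, and the fragment size was set to 300 bp for the tagged proteins, per the file headers. The deposited lists hold, per peak, the pileup (a signal that depends on depth), the fold enrichment (a ratio to the local background) and −log10 p and −log10 q, all as computed by the authors. Pileup was not used.

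Peaks on chromosomes 1 to 19 were kept. A region counted as overlapped at 1 bp or more. Where several peaks of a list lay on a region, the one with the highest fold enrichment gave its value. Regions of both lines of a tagged protein were joined and any overlapping a BirA peak removed. The overlap step was tested on simulated data. Python 3.11.15, numpy 2.4.6, pandas 2.3.3, scipy 1.17.1 and matplotlib 3.10.9 were used. A share of 0 carries a limit of 3 counts.

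Named regions are the 3 with the highest wild-type H3K9ac fold enrichment in each class of knockout H3K9ac, and the 3 with the highest H3K4me3 among those without knockout H3K4me3, without knockout RNAP, with knockout Myc, with Oct4 in all 3 genotypes and with both tagged proteins; the text gives most of them. The regions, lists and comparisons were chosen with earlier results of these data known. The quintiles of RNAP strength, deciles, tertiles, summits and the rule run in each genotype were added after the data were seen. Gene, cell type marker and motif lists had been prepared but were not used, since the gene table given is of build GRCm38. Alternatives were a −log10 q of at least 5, 50% coverage, a window of 1000 bp, overlap with the wild-type peak on the region, width limits of 2000 bp and none, leaving out each tagged line, regions found in both lines, and BirA regions kept.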

Additional observations from a re-analysis of the deposited data

How the results depend on the processing

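No paired analysis was possible because each antibody and genotype has 1 library. The values are shares of listed peaks, so a peak just under the caller's threshold counts as absent, and depth, duplicates and input size differ between libraries. The contrast of few H3K9ac and many H3K4me3 and RNAP peaks in both knockouts had the same direction under every alternative run. In the order H3K4me3 in Taf5l-KO and Taf6l-KO, H3K9ac in both and RNAP in both, the shares were 96.7%, 96.9%, 0.857%, 3.97%, 74.7% and 89.7% with knockout peaks of −log10 q of at least 5. With 50% of the region covered they were 98.1%, 97.5%, 0.0357%, 0.393%, 56.9% and 55.8%. No wild-type share at these settings stands beside these values. Wild-type H3K9ac peaks covered 29.2% of the base pairs of the regions, and 300 regions reached that −log10 q in all 3 wild-type lists. Low H3K9ac shares at these settings therefore say little about the knockouts. For those 300 regions the shares were 100%, 100%, 7.67%, 49.0%, 99.7% and 99.3%. A width limit of 2000 bp left 1597 regions, with 98.7%, 98.9%, 0.939%, 11.8%, 97.9% and 98.4%. Without a limit there were 3662, and H3K9ac stood at 2.70% and 20.5%. Leaving out a line moved the TAF6L-FB share to between 2.07% and 6.93% and the TAF5L-FB share to between 0% and 0.50%. Of 80 other shares under an alternative, 22 stayed within the 95% interval of the reported share and 58 did not. The causes were not tested.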

Other observations

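The 863 regions that met the same rule but were 3000 bp or wider had an H3K9ac peak in 51 cases in Taf5l-KO, or 5.91% (95% interval 4.43 to 7.70), and in 301 in Taf6l-KO, or 34.9% (31.7 to 38.2). Wild-type Myc lay on 170 of them, or 19.7% (17.1 to 22.5), wild-type Oct4 on 45, or 5.21% (3.83 to 6.92), and TAF6L-FB on 124, or 14.4% (12.1 to 16.9). These shares were all above those of the 2799 narrower regions. The wider regions had a median width of 3709 bp against 1867 bp, and a longer region can meet more peaks at an overlap of 1 bp. The part of width in these shares was not tested. RNAP was listed at 861 of the 863 in each knockout.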
